A study of Mus musculus with 4 samples.

Results

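Fc receptors bind the constant part of antibodies and couple it to the inside of the cell, and Fc receptor-like proteins share their immunoglobulin domains. The genes described include *Fcgr1*, *Fcgr2b*, *Fcgr3* and *Fcgr4*, the IgG receptors of the mouse, and *Fcer1g*, the common signalling chain of the activating ones. The others are *Fcer2a*, the low-affinity IgE receptor, and the receptor-like genes *Fcrla* and *Fcrl1*. The genes described are 8 of the 18762 genes tested. The rule names them by family and uses no measured value, but they were chosen with earlier results of these data known, and other Fc receptor genes, *Fcer1a*, *Fcrl5*, *Fcrlb* and *Fcgrt* among them, stand in a list of their own. The value of a gene was the mean log2 signal of its probe sets that the platform annotates with that 1 symbol and whose second-highest value over the arrays was 5.04 or more. The 8 genes have 97 singly named probe sets, and 61 of them passed that filter.

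RNA of cells with high SOX7::GFP was compared with RNA of cells with low SOX7::GFP on 4 Affymetrix mouse exon arrays, 2 of each. Both groups came from bone marrow of iSox7 transgenic mice, in which doxycycline switches on SOX7 together with GFP, and were passaged on an irradiated layer of OP9, a mouse bone marrow stromal line, with Kit ligand, interleukin-7 and FLT3. After 10 to 12 passages, cells with high and with low SOX7::GFP were sorted on GFP and cKIT. The labels give no age of the mice and also name a cell line (iSOX7, derivative Ainv18) beside bone marrow cells. They do not say for each array whether doxycycline was present. The study describes the low and the high cells as subpopulations of SOX7::GFP-expressing cells that built up in its cultures. Since doxycycline switches on SOX7 with GFP, both groups are taken to come from cultures with doxycycline. High against low is therefore not read here as with against without doxycycline. The study calls the arrays biological duplicates, but the sources used here do not say whether they came from separate mice or cultures, so the p-values measure the spread between these arrays, and their number limits the precision.

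Activating IgG receptors carry no signalling motif of their own. They assemble with the common chain made by *Fcer1g*, whose tyrosine motif recruits the kinase Syk, and the same chain serves the high-affinity IgE receptor of mast cells and basophils. *Fcgr2b* is the inhibitory IgG receptor, which recruits the phosphatase made by *Inpp5d* and is the IgG receptor of B cells. *Fcer2a*, *Fcrl1* and *Fcrla* are known mainly from B-lineage cells.

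The 8 genes did not move as 1 block. *Fcgr3* and its signalling partner *Fcer1g* rose in SOX7::GFP high cells, by 3.53-fold and 2.91-fold, while *Fcgr1* and *Fcrla* fell in them, with log2 fold changes of -1.34 and -1.65. The other 4 genes were not called. A gene was called where its change was at least 2-fold and its adjusted p by limma was under 0.05 (Benjamini-Hochberg over all genes tested). Of the 8 genes, 2 were called higher, against 3.61% of all genes tested, and 2 were called lower, against 3.24% of all genes. The 2 called lower were *Fcrla* and *Fcgr1*. Of their kept probe sets, 5 of 7 and 2 of 8 passed the filter through the SOX7::GFP low arrays alone. Without filter, 1 of the 8 genes was called lower, so nothing is read from the share called lower. The groups did not overlap for 7 of the 8 genes, 2 of them higher and 5 lower in SOX7::GFP high cells. Non-overlapping groups were common, at 54.4% of all genes. No such share is given for probe sets, so counts of non-overlapping probe sets below have no background to be set against. The probe sets of a gene were read on the same 4 arrays and are not independent. The median log2 fold change of the 8 genes was -0.87, beside 0.05 over all genes.

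**Figure D1:**
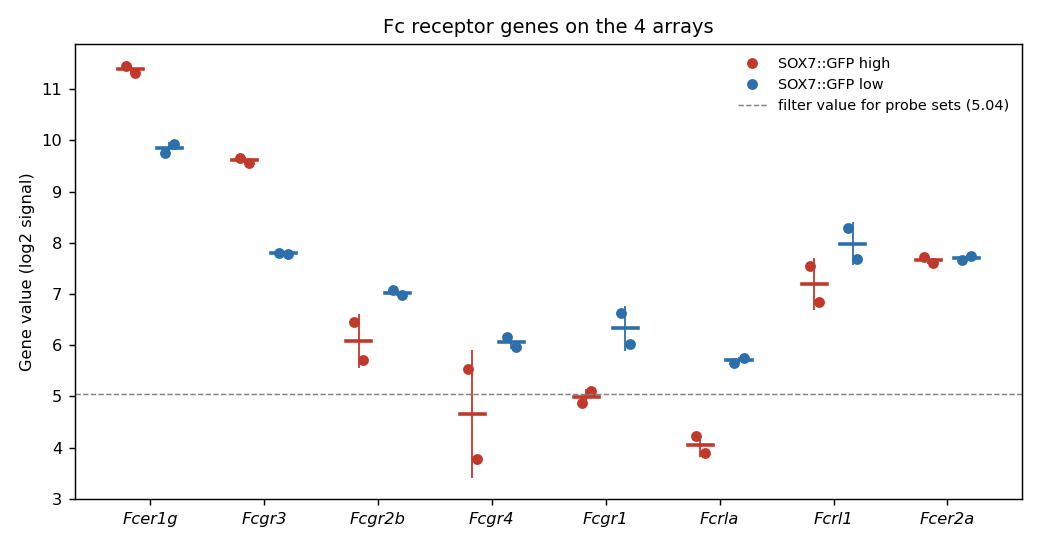
Gene values (log2 signal, vertical axis) of the 8 Fc receptor genes, with SOX7::GFP high arrays (red) left of SOX7::GFP low arrays (blue), 1 point for each array, and the mean with its SD (n = 2) as lines. *Fcer1g* and *Fcgr3* lie higher in SOX7::GFP high cells with little spread, *Fcgr4* has 5.54 and 3.77 on the SOX7::GFP high arrays, and the dashed line is the filter value of 5.04 for probe sets.

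The sort was checked on its own genes. *Sox7* had 9.52 and 9.63 in SOX7::GFP high cells, against 9.07 and 8.90 in SOX7::GFP low cells. The groups did not overlap, and the difference of 0.59 did not pass (adjusted p = 0.0859 by limma). *Kit* differed by 0.89 (adjusted p = 0.0464 by limma), under the minimum of 2-fold. Arrays of 1 group correlated at 0.961 for SOX7::GFP high and 0.958 for SOX7::GFP low over all genes tested, and arrays of different groups at 0.859 to 0.865. Markers of the cell types that the sorted populations could hold differed too. Of 9 measured B-lineage markers, 8 were called lower, and their mean level was 5.81 and 7.01 on the SOX7::GFP high arrays, against 10.1 on each SOX7::GFP low array. Of 9 neutrophil markers, 4 were called lower, with mean levels of 8.21 and 7.34 in SOX7::GFP high cells, against 10.3 and 10.5 in SOX7::GFP low cells. Of 8 mast cell and basophil markers, 4 were called higher. They were *Gzmb*, with the largest log2 fold change of the 8 (4.26), *Cpa3*, *Mcpt8* and the Fc receptor gene *Fcer1a*. Mean levels of the 8 were 9.02 and 8.45 in SOX7::GFP high cells, against 6.73 and 6.62 in SOX7::GFP low cells. Of 11 monocyte and macrophage markers 0 were called with limma, while 3 had an unadjusted p under 0.05, and their mean levels were 7.10 and 6.44 in SOX7::GFP high cells, against 7.34 and 6.85 in SOX7::GFP low cells. Of 8 natural killer cell markers, 2 were called lower, with mean levels of 5.45 and 5.79 in SOX7::GFP high cells, against 6.45 and 6.43 in SOX7::GFP low cells. Of 5 dendritic cell markers and 7 stromal markers 0 were called with limma, while 2 and 1 had an unadjusted p under 0.05. In such bulk samples, fewer cells of a type and less RNA per cell cannot be told apart.

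*Fcer1g* had 11.45 and 11.32 on the SOX7::GFP high arrays, against 9.76 and 9.94 on the SOX7::GFP low arrays. Both SOX7::GFP high values lay well above both SOX7::GFP low values. The means were 11.4 ± 0.09 on SOX7::GFP high arrays and 9.85 ± 0.13 on SOX7::GFP low arrays (SD, n = 2 each), and the log2 fold change was 1.54 (standard error, SE, 0.15, adjusted p = 0.00961 by limma). All 6 probe sets of the gene passed the filter and none overlapped between the groups. Their differences ran from 0.88 to 1.97, and 4 were called. The smallest difference belonged to the brightest probe set, which averaged 13.3 on SOX7::GFP high arrays and 12.5 on SOX7::GFP low arrays. Without SOX7::GFP high replicate 1 or replicate 2, the call was lost (adjusted p = 0.0678 and 0.0607 by limma), with the log2 fold change at 1.47 and 1.61.

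*Fcgr3*, a low-affinity activating IgG receptor of myeloid, mast and natural killer cells, was the other gene that rose. It had 9.66 and 9.56 in SOX7::GFP high cells, against 7.80 and 7.79 in SOX7::GFP low cells. The spread within each group was small beside the gap between them. The log2 fold change was 1.82 (SE 0.14, adjusted p = 0.006 by limma), with means of 9.61 ± 0.07 on SOX7::GFP high arrays and 7.79 ± 0.01 on SOX7::GFP low arrays (SD, n = 2 each). The gene was covered by 10 singly named probe sets, 8 of which passed the filter. All 8 were higher on both SOX7::GFP high arrays, by 1.35 to 2.13, and 7 were called. The 2 that were left out were dim on every array and differed by -0.43 and 0.29. Without SOX7::GFP high replicate 1 the adjusted p was 0.0507 by limma, with the log2 fold change at 1.77.

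*Fcer1g* and *Fcgr3*, both called higher, were also set against each other. The log2 value of *Fcer1g* minus that of *Fcgr3* was 1.79 and 1.76 in SOX7::GFP high cells, against 1.96 and 2.15 in SOX7::GFP low cells. This offset was lower on both SOX7::GFP high arrays, with a difference of -0.28 and no overlap between the groups. With 2 arrays a group, an exact permutation test cannot go below p = 0.333 (two-sided), which was the value for each of the 5 pairs examined.

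The remaining activating receptors had lower means in SOX7::GFP high cells. *Fcgr1*, the high-affinity IgG receptor of monocytes and macrophages, had 4.87 and 5.10 in SOX7::GFP high cells, against 6.64 and 6.02 in SOX7::GFP low cells. The groups did not overlap, and the mean of the SOX7::GFP high cells lay under the filter value. The means were 4.99 ± 0.16 on SOX7::GFP high arrays and 6.33 ± 0.44 on SOX7::GFP low arrays (SD, n = 2 each), and the log2 fold change was -1.34 (SE 0.25, adjusted p = 0.0434 by limma). Of 15 probe sets 8 passed the filter, and all 8 were lower in SOX7::GFP high cells. Only 1 of them was called, at 2.70 and 3.14 in SOX7::GFP high cells, against 5.63 and 5.58 in SOX7::GFP low cells. It and 1 more passed the filter through the SOX7::GFP low arrays alone, and of the other 6, with differences from -2.07 to -0.26, 0 were called. The brightest of the 8 by its second-highest value differed by -0.26, with groups that overlapped. The call for *Fcgr1* lay near the threshold. It was lost without filter (log2 fold change -0.88, adjusted p = 0.199 by limma), with the median of the probe sets (adjusted p = 0.0645 by limma), with the replicate number as a block (adjusted p = 0.0631 by limma), and without replicate 1 of SOX7::GFP low cells or either array of SOX7::GFP high cells (adjusted p = 0.0926 to 0.19 by limma).

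*Fcgr4*, an activating receptor of mouse monocytes and neutrophils, had 5.54 and 3.77 in SOX7::GFP high cells, against 6.17 and 5.96 in SOX7::GFP low cells. The SOX7::GFP high arrays stood further apart than the group means did. The difference of -1.41 (SE 0.59) was not called (adjusted p = 0.243 by limma). It rests on 3 of 6 probe sets, and the choice of array decided its size. Without SOX7::GFP high replicate 1 it was -2.30 and passed (adjusted p = 0.0456 by limma), and without SOX7::GFP high replicate 2 it was -0.53. SOX7::GFP high replicate 2 also had the lower mean level of that pair over the 11 monocyte and macrophage markers (7.10 and 6.44) and the 9 neutrophil markers (8.21 and 7.34). Mean levels of the mast cell and basophil, dendritic cell and stromal markers were lower on that array too. Those of the B-lineage and natural killer cell markers were higher on it. These mean levels were not tested against each other. The part of monocytes, macrophages and neutrophils in the *Fcgr4* and *Fcgr1* values was not tested.

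The inhibitory receptor *Fcgr2b* had 6.46 and 5.71 in SOX7::GFP high cells, against 7.08 and 6.98 in SOX7::GFP low cells. The groups did not overlap, and the SOX7::GFP high arrays were the more spread. The means were 6.08 ± 0.53 on SOX7::GFP high arrays and 7.03 ± 0.07 on SOX7::GFP low arrays (SD, n = 2 each). The difference of -0.95 (SE 0.28) was not called (adjusted p = 0.124 by limma). All 12 probe sets kept, of 13, were lower in SOX7::GFP high cells, by 0.22 to 1.60, and 9 did not overlap between the groups. Being read on the same arrays, they are not separate evidence for a fall of the gene. With limma 0 of the 12 were called, while 6 had an unadjusted p under 0.05. Without SOX7::GFP high replicate 1 the log2 fold change was -1.32, and without replicate 2 of that group it was -0.57.

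The balance between the activating and the inhibitory low-affinity receptor can be read on each array as the log2 value of *Fcgr3* minus that of *Fcgr2b*. It was 3.20 and 3.85 in SOX7::GFP high cells, against 0.72 and 0.81 in SOX7::GFP low cells, a difference of 2.76. *Fcer1g* minus *Fcgr2b* gave 4.99 and 5.61 in SOX7::GFP high cells, against 2.68 and 2.96 in SOX7::GFP low cells. Neither offset overlapped between the groups. This follows from the genes themselves, since *Fcgr3* and *Fcer1g* were higher and *Fcgr2b* lower on both SOX7::GFP high arrays without overlap. The offsets therefore add no finding of their own, and *Fcgr2b* was not called. Only the change of an offset has a meaning, since the signal of 1 probe set cannot be set against that of another.

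*Fcgr2b* and *Fcgr3* are alike in sequence outside the cell, and 4 probe sets carry both symbols. They were left out of both genes and not tested. In 3 of these, SOX7::GFP high cells lay higher by 1.09 to 1.57. The fourth averaged 6.94 on SOX7::GFP high arrays and 6.85 on SOX7::GFP low arrays. What singly named probe sets of either gene pick up from the other was not tested.

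**Figure D2:**
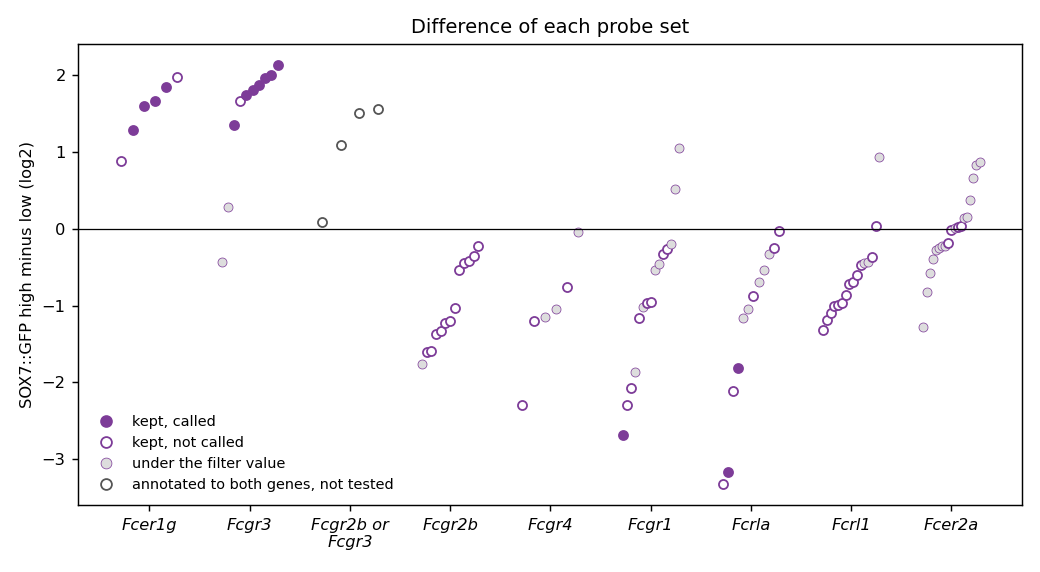
Mean of SOX7::GFP high minus mean of SOX7::GFP low arrays (log2, vertical axis) for each probe set of the 8 genes, with probe sets ordered by difference within a gene. All kept probe sets of *Fcer1g* and *Fcgr3* lie above 0, all kept ones of *Fcgr1*, *Fcgr2b*, *Fcgr4* and *Fcrla* below 0, and grey points were under the filter value and not tested.

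*Fcrla*, an Fc receptor-like protein that stays inside B cells and binds immunoglobulin in human ones, had 4.22 and 3.88 in SOX7::GFP high cells, against 5.66 and 5.75 in SOX7::GFP low cells. Both SOX7::GFP high values lay under the filter value, and the groups did not overlap. The means were 4.05 ± 0.23 on SOX7::GFP high arrays and 5.70 ± 0.07 on SOX7::GFP low arrays (SD, n = 2 each), and the log2 fold change was -1.65 (SE 0.17, adjusted p = 0.0108 by limma). Its 7 kept probe sets, of 12, disagreed in size. Of the 7, 5 passed the filter through the SOX7::GFP low arrays alone, so that a difference in this direction was fixed by their choice. These 5 include both called probe sets and all that did not overlap between the groups. The other 2 differed by -0.25 and -0.03, with groups that overlapped. Over all 12 probe sets, without filter, *Fcrla* was still called lower (log2 fold change -1.28, adjusted p = 0.012 by limma). The call was lost without either array of SOX7::GFP high cells and without replicate 2 of SOX7::GFP low cells (adjusted p = 0.0507, 0.0616 and 0.0561 by limma).

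*Fcrl1*, a surface receptor-like protein of B cells, had 7.55 and 6.84 in SOX7::GFP high cells, against 8.29 and 7.68 in SOX7::GFP low cells. The groups did not overlap, but the higher SOX7::GFP high array came close to the lower SOX7::GFP low array. The difference of -0.79 (SE 0.33) was not called (adjusted p = 0.241 by limma). Of its 13 kept probe sets, of 16, 12 were lower in SOX7::GFP high cells, with differences from -1.32 to 0.03. With limma 0 of the 13 were called, while 3 had an unadjusted p under 0.05. Leaving out 1 array moved the log2 fold change between -1.14 without SOX7::GFP high replicate 1 and -0.43 without SOX7::GFP high replicate 2. In the same arrays the B-lineage transcription factors *Pax5* and *Ebf1* fell, with log2 fold changes of -4.03 and -4.55 (adjusted p = 0.00589 and 0.00647 by limma). Within the SOX7::GFP high pair, replicate 2 had the higher value of *Pax5* (5.37 and 6.17) and *Ebf1* (4.78 and 5.82). It also had the higher mean level of the 9 B-lineage markers (5.81 and 7.01). *Fcrla* (4.22 and 3.88), *Fcrl1* (7.55 and 6.84) and *Fcgr2b* (6.46 and 5.71) were lower on that array. The part of B-lineage cells in the values of *Fcrla*, *Fcrl1* and *Fcgr2b* was not tested.

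*Fcer2a*, the low-affinity IgE receptor of mature B cells, did not differ beyond the spread between arrays. It had 7.72 and 7.61 in SOX7::GFP high cells, against 7.66 and 7.75 in SOX7::GFP low cells, and the groups overlapped. The log2 fold change was -0.03 (SE 0.14, adjusted p = 0.915 by limma). Only 4 of its 19 probe sets passed the filter. The brightest averaged 10.2 in both groups, and the next 9.54 on SOX7::GFP high arrays and 9.50 on SOX7::GFP low arrays. The other 15 reached at most 4.96 by their second-highest value, so that the value of *Fcer2a* rests on a few places of the gene.

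Over the 61 kept probe sets of the 8 genes, 17 differences were above 0 and 44 below. In the fit over 191615 probe sets, 11 were called higher, against 2.25% of all probe sets, and 3 lower, against 1.77%. Of the 61, 7 passed the filter through the SOX7::GFP low arrays alone and none through the SOX7::GFP high arrays alone. Those 7, 5 of *Fcrla* and 2 of *Fcgr1*, could enter only by being high in SOX7::GFP low cells, and all 3 probe sets called lower are among them, so nothing is read from their share. The probe sets nearest the filter value were 1 of *Fcgr4* and 1 of *Fcrla* inside it, with second-highest values of 5.16 and 5.19, and 1 of *Fcer2a* and 1 of *Fcgr4* outside it, with 4.96 and 4.92.

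**Figure D3:**
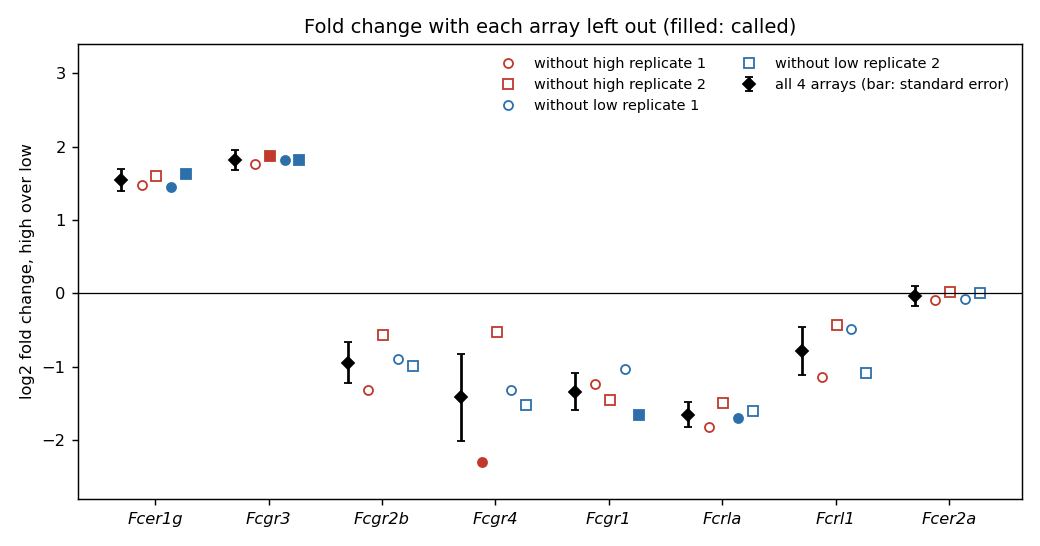
Log2 fold change of SOX7::GFP high over SOX7::GFP low cells (vertical axis) for the 8 genes with all 4 arrays (black, bar: standard error) and with each array left out (open: not called, filled: called). *Fcgr3* stays between 1.77 and 1.87 and *Fcer1g* between 1.45 and 1.63, while *Fcgr4* moves between -2.30 and -0.53.

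The promoters of the 4 called genes are shown because the 2 that rose and the 2 that fell can be set side by side at the letters searched for. Sequences are from RefSeq on GRCm38.p6, 250 bases before to 50 after the start of transcription, 5′ to 3′ on the strand of the gene. All 8 genes matched, with 11 windows. Capitals mark AGGAAG or its reverse complement CTTCCT, the core of sites of ETS factors, and AACAAT or ATTGTT, a core of sites of SOX factors. The windows are *Fcgr3* at chr1:171059354-171059653, *Fcer1g* at chr1:171234300-171234599, *Fcgr1* at chr3:96293920-96294219 and *Fcrla* at chr1:170927534-170927833, all on the minus strand.
Fcgr3: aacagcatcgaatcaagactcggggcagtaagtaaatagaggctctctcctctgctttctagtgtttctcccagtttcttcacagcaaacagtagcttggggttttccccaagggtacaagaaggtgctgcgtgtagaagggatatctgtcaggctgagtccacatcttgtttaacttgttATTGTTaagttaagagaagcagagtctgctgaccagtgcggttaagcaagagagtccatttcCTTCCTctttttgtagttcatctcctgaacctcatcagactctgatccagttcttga
Fcer1g: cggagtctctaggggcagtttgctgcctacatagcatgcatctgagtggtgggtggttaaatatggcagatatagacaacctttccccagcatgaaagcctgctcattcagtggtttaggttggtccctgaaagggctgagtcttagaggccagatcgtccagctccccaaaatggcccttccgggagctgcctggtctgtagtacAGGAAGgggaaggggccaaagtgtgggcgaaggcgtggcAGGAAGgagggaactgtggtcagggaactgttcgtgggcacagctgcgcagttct
Fcgr1: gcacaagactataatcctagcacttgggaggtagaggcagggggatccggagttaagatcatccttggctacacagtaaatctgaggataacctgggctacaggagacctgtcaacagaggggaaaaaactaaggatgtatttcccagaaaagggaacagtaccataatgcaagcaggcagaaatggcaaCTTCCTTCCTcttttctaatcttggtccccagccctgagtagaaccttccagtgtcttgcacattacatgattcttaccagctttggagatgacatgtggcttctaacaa
Fcrla: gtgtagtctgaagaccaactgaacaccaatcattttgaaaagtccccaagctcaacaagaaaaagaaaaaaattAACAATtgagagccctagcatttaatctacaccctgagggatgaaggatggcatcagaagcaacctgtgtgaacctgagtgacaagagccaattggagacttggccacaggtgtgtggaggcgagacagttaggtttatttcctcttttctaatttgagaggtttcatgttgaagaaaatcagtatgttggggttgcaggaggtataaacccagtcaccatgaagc
The ETS letters occur once in *Fcgr3*, 7 bases before the start, and in *Fcer1g* at 44 and 5 bases before it. In *Fcgr1* there are 2 matches that overlap, at 60 and 56 bases before the start, and *Fcrla* has none. The SOX letters occur in *Fcgr3*, 69 bases before the start, and in *Fcrla*, 176 bases before it, so that 1 gene that rose and 1 that fell hold them. Over the first window of each of the 8 genes, 6 hold the ETS letters, 2 the SOX letters and 3 GATAA or its reverse complement TTATC, the core of GATA sites. Of all 32851 promoters of this length, 35.4% hold the ETS letters, 10.7% the SOX letters and 25.4% the GATA letters. The ETS and SOX letters did not overlap each other in the 4 windows shown. A match is a run of letters and not a shown binding site.

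Of the IgG receptor genes, *Fcgr2b*, *Fcgr3* and *Fcgr4* lie in 1 stretch of chromosome 1, and *Fcgr1* lies on chromosome 3. In order of gene start in the RefSeq table, *Fcrla* (log2 fold change -1.65), which was called lower, comes first. It is followed by *Fcgr2b* (-0.95) and *Fcgr4* (-1.41), which were not called. *Fcgr3* (1.82) comes next and *Fcer1g* (1.54) lies further along, both called higher. Genes called in opposite directions thus lie in this stretch, but *Fcgr3* is the only IgG receptor gene among them. Around the 8 genes, up to 3 annotated genes on each side gave 40 neighbours outside the family members described, of which 15 were measured. A single neighbour was called. It was *Fcrl5*, beside *Fcrl1* on chromosome 3 and itself an Fc receptor-like gene of B cells, at 7.18 and 6.28 in SOX7::GFP high cells, against 4.41 and 4.26 in SOX7::GFP low cells. It rose by 2.40 on the log2 scale (SE 0.32, adjusted p = 0.0193 by limma) where *Fcrl1* had -0.79. Both SOX7::GFP low values of *Fcrl5* lay under the filter value, and 5 of its 9 kept probe sets passed through the SOX7::GFP high arrays alone. Without filter its log2 fold change was 1.27 and the call was lost (adjusted p = 0.0605 by limma).

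Other Fc receptors and their ligands were read from a list of 20 genes, 17 of which were measured. Of these, 2 were called higher, *Fcrl5* and *Fcer1a*, and 1 lower, *Ighm*, with a median log2 fold change of 0.06. *Fcer1a*, the IgE-binding chain that needs the product of *Fcer1g* at the surface, had 8.18 and 7.54 in SOX7::GFP high cells, against 5.59 and 5.65 in SOX7::GFP low cells. Its groups stood far apart, and the log2 fold change was 2.24 (SE 0.25, adjusted p = 0.0118 by limma). Of its 5 kept probe sets, 1 passed the filter through the SOX7::GFP high arrays alone. Without filter *Fcer1a* was still called higher (log2 fold change 1.99, adjusted p = 0.0174 by limma). The third chain of the high-affinity IgE receptor is made by *Ms4a2*, which had 8.01 and 6.78 in SOX7::GFP high cells, against 5.64 and 6.15 in SOX7::GFP low cells. Its difference of 1.50 did not pass (SE 0.45, adjusted p = 0.131 by limma), and the SOX7::GFP high arrays were well apart. Without either SOX7::GFP low array, *Fcer1a* and *Fcrl5* were not called, and 1 gene of the list was. *Fcer1a* and *Ms4a2* are also in the list of mast cell and basophil markers. There, *Cpa3*, a mast cell protease, rose by 3.20 and *Mcpt8*, a basophil protease, by 2.25 on the log2 scale (adjusted p = 0.00427 and 0.0309 by limma). The mast cell tryptase *Tpsab1* had 5.29 and 5.85 in SOX7::GFP high cells, against 5.76 and 5.27 in SOX7::GFP low cells. The part of mast cells and basophils in the rise of *Fcer1g* and *Fcgr3* was not tested.

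Of the ligands, *Ighm*, the heavy chain of IgM, fell by 2.50 on the log2 scale (SE 0.22, adjusted p = 0.00736 by limma), at 8.91 and 9.44 in SOX7::GFP high cells, against 11.66 and 11.68 in SOX7::GFP low cells. The measured IgG heavy chain genes were not called. *Ighg2b* had 4.43 and 6.95 in SOX7::GFP high cells, against 8.62 and 10.17 in SOX7::GFP low cells (log2 fold change -3.70, adjusted p = 0.0952 by limma), which is a wide spread in both groups. *Ighg1* differed by -0.07. The receptor of IgM, *Fcmr*, and the neonatal Fc receptor *Fcgrt*, which carries IgG across cells, were not called, at -0.51 and 0.16.

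Downstream of the receptors, 27 of 30 listed signalling genes were measured. Of these, 4 were called higher and 2 lower, and the median log2 fold change was -0.25. The 2 largest rises were adaptors that join Syk to phospholipase C. *Lcp2*, the adaptor SLP-76 of mast cells, platelets and T cells, had 9.59 and 9.58 in SOX7::GFP high cells, against 7.34 and 7.55 in SOX7::GFP low cells (log2 fold change 2.14, adjusted p = 0.0056 by limma). *Lat*, the membrane adaptor that binds it, had 8.34 and 8.79 in SOX7::GFP high cells, against 6.90 and 6.21 in SOX7::GFP low cells (log2 fold change 2.01, adjusted p = 0.0249 by limma). *Dok2*, a negative adaptor, and *Vav3*, a guanine nucleotide exchange factor, rose by 1.55 and 1.35 on the log2 scale (adjusted p = 0.0193 and 0.0308 by limma). *Fyn*, a Src family kinase, and *Pik3cd*, the leukocyte subunit of phosphoinositide 3-kinase, each fell by 1.10 on the log2 scale (adjusted p = 0.0235 and 0.029 by limma). With any 1 array left out, 1 to 2 of the signalling genes were called.

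The enzymes that the 2 kinds of receptor motif recruit were not called. *Syk* had 7.05 and 7.07 in SOX7::GFP high cells, against 8.21 and 7.79 in SOX7::GFP low cells (log2 fold change -0.94, adjusted p = 0.053 by limma). *Inpp5d*, the phosphatase recruited by the inhibitory receptor, had 8.66 and 8.45 in SOX7::GFP high cells, against 9.57 and 9.44 in SOX7::GFP low cells. Its adjusted p was 0.0306 by limma, and its log2 fold change of -0.95 was under the minimum of 2-fold. Neither gene overlapped between the groups. *Plcg1* and *Plcg2*, the phospholipases, had log2 fold changes of -0.90 and -0.12 (adjusted p = 0.0544 and 0.672 by limma).

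**Figure D4:**
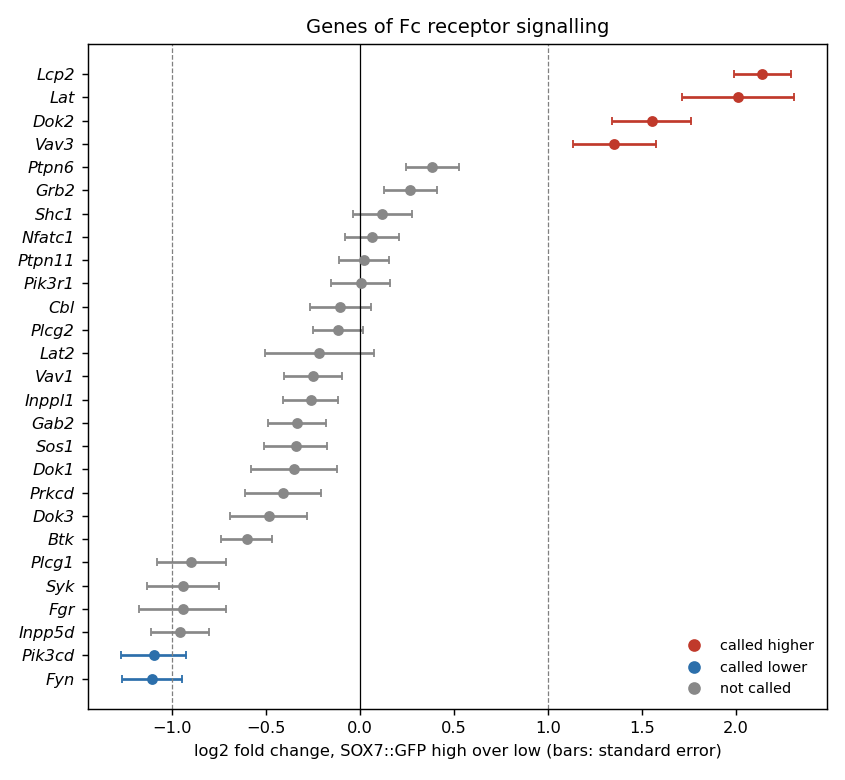
Log2 fold change of SOX7::GFP high over SOX7::GFP low cells (horizontal axis, bars: standard error) for the 27 measured genes of Fc receptor signalling, with dashed lines at the minimum of 2-fold. *Lcp2*, *Lat*, *Dok2* and *Vav3* were called higher (red), *Pik3cd* and *Fyn* lower (blue), and the other 21 were not called (grey).

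The genes whose 4 values, centred on their mean, lay nearest to those of each called gene were taken from all genes tested, as a description over 4 arrays. For *Fcgr3* they were *Itgb3* and *Arap3*, at distances of 0.046 and 0.064 log2 units. For *Fcer1g* they were *Ppm1h* and *Frmd4a*, at 0.078 and 0.094. *Ift43* and *Ptger4* lay nearest to *Fcgr1*, at 0.16 and 0.19, and *Rapgef5* and *Map3k1* nearest to *Fcrla*, at 0.090 and 0.11.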

How the data were processed

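Total RNA of 4 samples was measured on exon arrays of the mouse (Affymetrix, type 1.0 ST). The authors adjusted background and normalized with robust multi-array averaging (RMA, version not given in the sources used here) and deposited log2 values of 1236087 probe sets, with medians of 3.90 to 3.91 per array. The table holds no detection scores, so a minimum on the second-highest value (5.04) stood in for the filter of the study. Symbols came from the platform annotation, which gives 1 symbol for 321091 probe sets, several for 7796 and none for 907200, and 4259 of 22378 symbols were updated through the RefSeq gene table (GRCm38.p6). Each of the 4 columns was a sample of the series.

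Kept probe sets were averaged per gene and the 2 groups fitted with limma 3.58.1 (lmFit and eBayes) in R 4.3.3, with p-values adjusted by Benjamini-Hochberg over all 18762 genes or all 191615 probe sets. A call took a change of 2-fold or more with an adjusted p under 0.05, the limits of the study's heatmap. The scripts were tested on simulated data. The 8 members and the gene lists were chosen with earlier results of these data known. Named were all 8 members, *Fcer1a* and *Ms4a2*, called neighbours, and the 2 genes nearest to each called member. Called genes were named from the lists of other Fc receptors and ligands and of signalling genes. Of the cell type markers, *Sox7*, *Kit*, *Pax5*, *Ebf1* and the called mast cell and basophil genes were named. Other called markers were only counted. *Ighg2b*, *Ighg1*, *Fcmr*, *Fcgrt*, *Syk*, *Inpp5d*, *Plcg1*, *Plcg2* and *Tpsab1* were named after their values were seen.

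Alternatives were no filter, a filter at 6, the median of probe sets, a further quantile normalization, limma with a trend and robust fit, the replicate number as a block, the methods' t-test, no minimum change, a test per probe set and each array left out. Some listed genes are not reported here.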

Additional observations from a re-analysis of the deposited data

How the results depend on the processing

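Over all genes 1286 were called. The methods' t-test with adjustment called 0 genes, against 1193 at an unadjusted p under 0.05 (3 of the 8 Fc receptor genes), a setting chosen after seeing the data. That adjusted t-test also called 0 of the 8 Fc receptor genes, 0 of the other Fc receptors and ligands, 0 of the signalling genes and 0 neighbours, where limma called 4, 3, 6 and 1. With 1 array left out, the lone array of a group was assumed to vary like the other group, and 311 to 717 genes were called, 1 to 3 of the Fc receptor genes, 1 to 3 of the other Fc receptors and ligands, 1 to 2 signalling genes and 0 to 1 neighbours. Without SOX7::GFP high replicate 1 only *Fcgr4* was called among the 8, and without SOX7::GFP high replicate 2 only *Fcgr3*. *Fcrl5* and *Fcer1a* were not called without either SOX7::GFP low array. Without filter 0 neighbours were called.

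Of the probe sets of the 8 genes, 14 were called by limma, 0 without filter, 5 with a replicate block and 0 to 1 with 1 array left out. *Fcer2a* changed sign, with a log2 fold change of 0.030 with the filter at 6 and 0.015 with the median, and it ran from -0.088 to 0.019 with 1 array left out. Of 96 log2 fold changes of the 8 genes under alternatives, 74 kept their direction and side of the threshold, 17 lost the call, 1 gained it and 4 changed sign, all 4 of *Fcer2a*.

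Deviations from the group means correlated at 0.10 between samples with the same number, and no label pairs them beyond that number. The replicate block called 1346 genes in all and 3 of the 8, losing *Fcgr1*. Dim genes limit what can be seen, since *Fcgr1*, *Fcgr4* and *Fcrla* averaged under the filter value in SOX7::GFP high cells and *Fcrl5* in SOX7::GFP low cells.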
